A study of Mus musculus with 2 samples.

Results

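The cells described here were 624 thymocytes that carried transcripts of V(D)J recombination and of the CD8 coreceptor, found among mouse cells sorted for the study of thymic invariant natural killer T (iNKT) cells. Each had at least 2 unique molecular identifiers (UMIs, 1 per captured RNA molecule) of Rag1, Arpp21 and Dntt together and at least 1 of Cd8b1, with no UMI of Il2ra or Lyz2 and at most 1 of Cd79a. They were 624 of 4249 cells (14.7%, exact binomial 95% interval 13.6 to 15.8) assigned to hashtag row 11, 13, 15 or 17, and 624 of 10007 cells assigned to any of rows 11 to 18. The working label was double positive (DP) thymocyte, a cell with both CD4 and CD8. The data went partly against that label, because a Cd4 UMI was found in 15.2% of these cells and Cd4 RNA was at about the level of the other cells of the same rows, so they are called Dntt+Cd8b1+ thymocytes below.

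The sorted cells came from C57BL/6 control mice (Ctrl: Kidins220 +/fl or +/+ with LckCre) and from T-KO mice (Kidins220 fl/fl with LckCre). In LckCre the proximal Lck promoter drives Cre in early thymocytes, and both genotypes carried it. Thymi of 4 mice were pooled, with 2 pools per genotype. The methods give a range of ages for the mice of the whole study, but not the ages of the mice in these pools. Stage 0 iNKT cells (TCRβ+ CD1d tetramer+ CD24+ NK1.1-) and stage 3 iNKT cells (TCRβ+ CD1d tetramer+ NK1.1+ CD24- CD44+) were sorted from each pool. The 8 populations were stained with hashtag antibodies against MHC class I and CD45, mixed and run as 1 droplet library read from the 5′ end, and the RNA and hashtag samples share their cell barcodes. The methods note a weak tetramer stain in this sort and name B, myeloid, DP and double negative (DN) cells among those removed. The labels number the hashtags from 1 and the files number them from 11, and no source used here pairs a row with a stage, a genotype or a pool. The 4 rows are therefore given as 4 populations without a group. Apart from an outlier flag over the rows, no test was run between or within them. All intervals cover counting error only.

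DP thymocytes arise from DN cells after a rearranged TCRβ chain pairs with the pre-TCR α chain, Ptcra, at the cell surface. Cells then divide as large blasts, turn on CD8 and CD4, leave the cell cycle as small cells, and rearrange the TCRα locus with the recombinase Rag1/Rag2. The TCRδ genes lie inside the TCRα locus, so a Vα to Jα join deletes them from that chromosome. iNKT cells descend from DP cells that make a Trav11 to Traj18 chain. Terminal deoxynucleotidyl transferase, encoded by Dntt, adds bases at the joins.

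The recombinase cuts at a signal next to each V segment, made of a heptamer, a spacer and a nonamer. The signals that directly follow the TRDV and shared TRAV/TRDV segments with most UMIs in these cells are shown, with Trav11 of the iNKT receptor for comparison. Capitals mark the first 7 bases as heptamer and, after a fixed spacer of 23, the last 9 as nonamer, 5′ to 3′. The nonamer was placed by this length and not by its letters, so it may be out of register. Sequences are from GRCm38 chromosome 14, plus strand, with segment ends from GENCODE M21.
Trdv2-2, chr14:53961603-53961641: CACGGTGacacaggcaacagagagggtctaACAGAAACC
Trdv1, chr14:53882218-53882256: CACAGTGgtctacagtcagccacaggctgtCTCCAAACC
Trav15-1-dv6-1, chr14:53560248-53560286: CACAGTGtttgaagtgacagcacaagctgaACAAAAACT
Trav15-2-dv6-2, chr14:53649995-53650033: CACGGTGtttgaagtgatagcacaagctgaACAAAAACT
Trav21-dv12, chr14:53876753-53876791: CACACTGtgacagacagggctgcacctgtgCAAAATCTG
Trav11, chr14:53519860-53519898: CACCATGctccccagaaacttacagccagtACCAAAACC
The heptamer CACAGTG stood directly after 102 of 134 TRAV and TRDV segments (76.1%), read on the strand of the segment, and 127 began with CAC. The signals of both Trav15 segments differed at 2 of 39 positions, A4G and C18T, counted from the first base of the heptamer with the base of Trav15-1-dv6-1 first. A match is a description of the letters and not of use.

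The share of Dntt+Cd8b1+ thymocytes differed between the rows. In row 11 they were 90 of 1176 cells (7.65%, 6.20 to 9.32). In row 13 they were 247 of 1601 cells (15.4%, 13.7 to 17.3). Row 11 lay below the others, and its interval overlapped none of theirs. Row 15 held 173 of 889 cells (19.5%, 16.9 to 22.2) and row 17 held 114 of 583 (19.6%, 16.4 to 23.01), whose intervals overlapped. In rows 12, 14, 16 and 18 only 5 of 5758 cells met the same rule (0.0868%). These cells had a median of 3400.5 UMIs, against 6328 in the cells of rows 11, 13, 15 and 17 outside the rule. A fixed UMI count is reached less easily in a shallow cell, and the part of depth in this share was not tested.

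**Figure D1:**
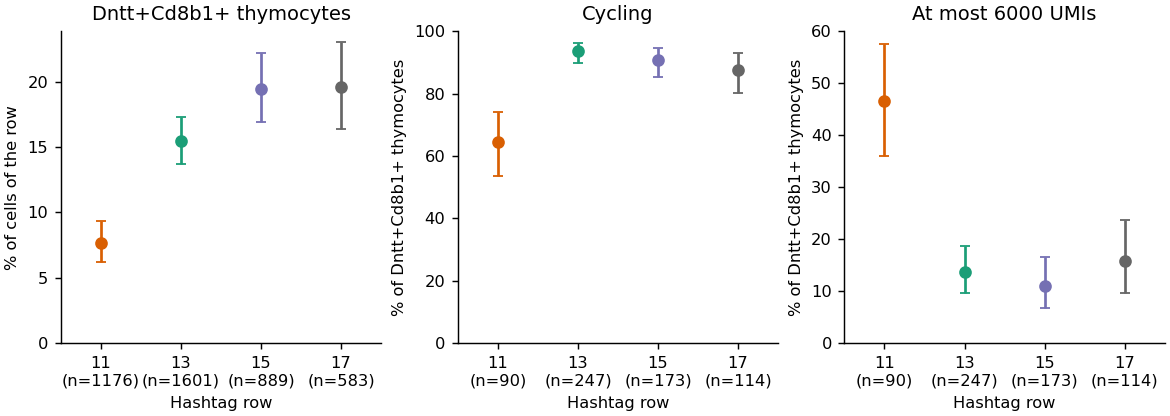
Dntt+Cd8b1+ thymocytes as a percentage of the cells of hashtag rows 11, 13, 15 and 17 (left), and the percentages of them that were cycling, with at least 2 UMIs of Mki67 and Top2a together (middle), and that had at most 6000 UMIs in all (right). Points are shares and bars exact binomial 95% intervals, and row 11 was lowest in the first 2 panels, at 7.65% and 64.4%, and highest in the last, at 46.7%.

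These cells were large libraries. Their median was 14886 UMIs and 3931.5 genes per cell, against 6328 UMIs and 2423 genes in the other 3625 cells of the same rows. The mitochondrial share had a median of 1.14%, against 1.65% in the others. More than 4000 genes were found in 298 of the 624 and in 455 of the 3625 others. No doublet caller was run, and the share of doublets was not tested.

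Other lineages were present in the same rows. Among the others, 810 had at least 2 UMIs of the B cell gene Cd79a, 598 of the rest had the myeloid gene Lyz2, 386 of the rest had Il2ra, the interleukin-2 receptor α chain of DN thymocytes, and 1130 of the rest had Ikzf2, the transcription factor Helios. The summed level of the 8 B cell genes was 577 CPM (UMIs of a gene per 1000000 UMIs of the group) in the Dntt+Cd8b1+ thymocytes, 432 to 1018 over the rows, against 14810 in the other cells. The 10 myeloid and dendritic genes summed to 279 CPM, 160 to 703 over the rows, against 5256. Both gaps were partly set by the choice of cells, since the rule limited Cd79a and Lyz2, 1 gene of each list, and the other cells include those picked by these genes. Row 11 was highest for both lists, and Ebf1, a defining B cell factor, had no UMI in these cells. Ighm, of the same list, went the other way. By the criterion given below it was not called lower than in the other cells, unlike the rest of the list. Against the cells with Ikzf2 it was called higher, while Cd74 was called lower. Zbtb16, the factor that marks iNKT cells, was at 0.44 CPM and Klrb1c (NK1.1) at 3.85 CPM.

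Kidins220, the gene deleted in T-KO mice, was at 14.1 CPM (exact Poisson interval 11.7 to 16.7), with 17.5, 16.9, 12.2 and 9.42 CPM in rows 11, 13, 15 and 17. Reads from the 5′ end do not report the floxed exon, so these levels do not check the deletion. Ikzf3, which encodes Aiolos, was at 70.0 CPM, with 59.7 to 77.5 CPM over the rows, and at 131 CPM in the other cells.

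A gene was called higher or lower when its summed CPM differed at least 2-fold, with 10 CPM added to both sides, and in the same direction in every row with at least 20 cells of both kinds. Genes had to have at least 50 UMIs over both groups. Of 12105 genes tested, 226 (1.87%) were called higher in the Dntt+Cd8b1+ thymocytes than in the other cells and 1026 (8.48%) lower. The cells were chosen by their own transcripts, so every ratio to the other cells is a description, and nothing is read from these counts. The median log2 ratio of all tested genes was -0.06.

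The recombination machinery stood high. Of 13 tested genes of recombination and end joining, 7 were called higher and none lower, with a median log2 ratio of 1.05. Rag1 and Dntt were used by the rule. Rag2, the partner of Rag1 and not in the rule, was at 46.3, 39.4, 34.2 and 19.4 CPM in rows 11, 13, 15 and 17, against 5.36, 7.18, 7.58 and 6.95 CPM in the other cells (log2 ratio 1.42). Every row of these cells lay above every row of the others. Xrcc6, which encodes the Ku70 end-binding protein, was at 317 CPM against 98.0, and Lig4, the ligase of end joining, at 34.8 CPM against 11.7. Hmgb1 and Hmgb2, which bend DNA for the recombinase, were called higher as well, and Hmgb2 is also a gene of dividing cells.

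Among the receptor genes the pre-TCR, β and δ chains were higher than in all other cells pooled, and the α chain was not. Ptcra was at 111, 106, 116 and 101 CPM in the 4 rows, against 8.09 to 20.3 CPM in the other cells (log2 ratio 2.25), and its groups did not overlap. Trbc1 and Trbc2, the constant regions of TCRβ, were at 378 and 1220 CPM, against 168 and 588. They were at 268 and 1097 CPM in the other cells with Il2ra and at 328 and 999 in those with Ikzf2. Neither gene was called against either of these groups. Trac, the constant region of TCRα, was at 28.8, 27.2, 19.1 and 39.3 CPM, against 34.5, 51.3, 43.7 and 76.8 in the other cells, and was not called. Trdc, the constant region of TCRδ, was at 215, 200, 211 and 220 CPM, against 40.6 to 84.3. Trdc thus exceeded Trac in each row of these cells, and its groups did not overlap. Of the 11 receptor and coreceptor genes 5 were called higher and none lower, 1 of the 5 being the rule gene Cd8b1. Cd3e, a chain common to all TCRs, was at 697 CPM against 394 and was not called.

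The coreceptors split. Cd8a, which pairs with the rule gene Cd8b1, was at 274, 138, 77.0 and 76.4 CPM, against 20.0 to 38.4 in the other cells (log2 ratio 1.83). Cd4 was at 52.5, 11.7, 9.21 and 9.97 CPM, against 22.8, 8.46, 13.5 and 13.9. Over the rows Cd4 was 14.9 CPM (12.5 to 17.7) in these cells and 14.4 (13.1 to 15.9) in the others, and 3.27 CPM in the Cd79a cells, which should lack it. After each cell was thinned to 2000 UMIs, 4.86% of Dntt+Cd8b1+ thymocytes had a Cd4 UMI (3.28 to 6.90; 15.2% at full depth), against 0.378% of Cd79a cells. The same shares for Cd8a were 20.8% and 0.883%. Both Cd4 and Cd8a were found in 3.35% of Dntt+Cd8b1+ thymocytes after thinning and in 12.3% at full depth.

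Several transcription factors of the DP stage were called higher and none of the list lower. Tcf7 (TCF-1) was at 1366 CPM against 445, Bcl11b at 217 against 75.9, Satb1 at 558 against 242 and Tcf12 (HEB) at 172 against 71.7. Among 10 lineage factors 3 were called lower, Ikzf2 at 80.9 CPM against 281, Id2 at 20.3 against 234 and Runx3 at 17.8 against 68.7. The other cells include the 1130 chosen here by Ikzf2.

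Genes of TCR signalling and of the response to it went different ways. Of 12 proximal signalling genes 4 were called higher, the kinase Lck (677 CPM against 279), the adaptor Lat (768 against 273), Sh2d1a, which encodes the adaptor SAP of iNKT selection (286 against 85.8), and Themis, needed for positive selection (179 against 53.1). Lck and Lat were called against neither the other cells with Il2ra nor those with Ikzf2. Sh2d1a was called higher against the former only and Themis against the latter only. Against all other cells the kinase Fyn was called lower, at 34.0 CPM against 94.3. Of 12 genes induced by selection, 11 were called lower, with a median log2 ratio of -1.80. The early activation marker Cd69 was at 14.4, 21.4, 16.9 and 25.5 CPM, against 74.0 to 116 in the other cells. Nr4a1 (Nur77), a readout of TCR signal, was at 18.4 CPM against 125, and Egr1 at 18.4 against 132. The rows did not overlap for Cd69.

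MHC class I genes were low. Of 8 tested genes of this list, 5 were called lower and none higher, with a median log2 ratio of -1.51. H2-K1 was at 144, 101, 98.7 and 114 CPM, against 1199, 1090, 931 and 777 in the other cells. H2-D1 was at 168 CPM against 1283 and B2m, the light chain, at 347 against 1089. The lowest level in the other cells exceeded the highest in these. Against the cells with Ikzf2 alone, 3 of the 8 genes were called lower and none higher, namely H2-K1, H2-D1 and Tapbp. The hashtag antibodies bind MHC class I and CD45, and Dntt+Cd8b1+ thymocytes carried a median of 1062.5, 1066, 1050 and 1572.5 hashtag UMIs, against 1811, 1702, 1677.5 and 2198 in the other cells of the same rows. That gap depended on the cells compared. The medians were 2594, 2777, 2894 and 3929.5 in the Cd79a cells, and 1270, 1378, 1461 and 2064 in the cells with Ikzf2, nearer to these thymocytes. Ptprc, which encodes CD45, was at 231 CPM against 387 in all other cells. The part of either in the hashtag counts was not tested.

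Of 10 mature T cell genes 6 were called lower, among them Klf2, a factor for thymic exit, at 8.02 CPM against 124. Of 10 survival and apoptosis genes 3 were called lower and none higher. They were the survival genes Bcl2, at 19.9 CPM against 74.1, and Mcl1, at 120 against 261, and Pmaip1, which promotes apoptosis. Bcl2l1, the survival gene of DP cells, was at 25.4 CPM (22.2 to 28.9) against 16.1 (14.7 to 17.7) and was not called.

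Cell cycle genes were high in a group whose rule used none of them, but the rule was not independent of depth. Its fixed UMI counts are reached more easily in deep cells, and the medians were 14886 UMIs against 6328 in the other cells. Cells with at least 2 UMIs of Mki67 and Top2a together were 60.9% of the lowest UMI quartile of these thymocytes and 100% of the highest. The part of depth in the levels below was not tested. Of 23 genes of G2/M and mitosis 16 were called higher, and of 18 S phase genes 11, with no gene of either list lower. Ccnd3, the D cyclin of dividing thymocytes after the pre-TCR, was at 688, 685, 682 and 723 CPM, against 256 to 310. Ccnd2 was at 30.4 CPM against 125 and Btg1, an inhibitor of division, at 47.8 against 289. The D cyclins thus lay on opposite sides. None of 15 growth and metabolism genes was called, although Myc was at 291 CPM against 142 and Ldha at 1383 against 791.

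Genes outside the lists with the largest ratios included several that few T cell panels hold. Endou, an endoribonuclease, was at 244, 253, 201 and 233 CPM, against 17.8 to 43.1. Gzma, a granule protease, was at 462, 619, 460 and 672 CPM, against 30.4 to 194. Thy1, a surface marker of T lineage cells, was at 1525 CPM against 271. Syt13 was at 56.1 CPM against 5.98, Aqp11 at 230 against 50.4 and Dgkeos at 140 against 19.1. The levels differed little between rows for Endou and Thy1.

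**Figure D2:**
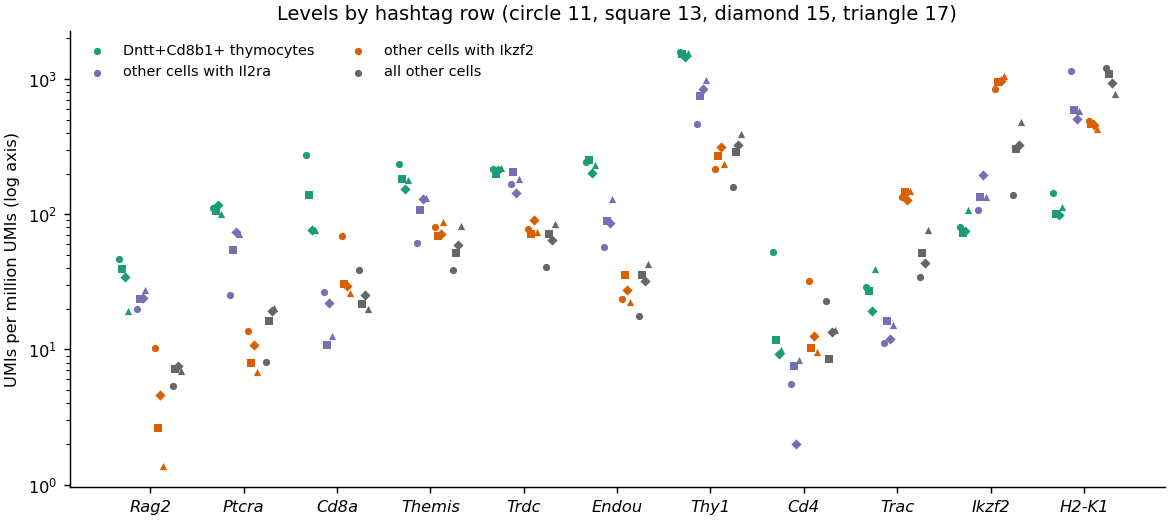
Summed CPM (log axis) of named genes, 1 point per hashtag row (11, 13, 15 and 17), in the Dntt+Cd8b1+ thymocytes, in the other cells with Il2ra or with Ikzf2 and in all other cells of the same rows. All rows of Rag2 and Ptcra stood above every row of all other cells pooled and all rows of H2-K1 below them, while the rows of Cd4 overlapped.

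Set against the Il2ra cells, whose median of 10585.5 UMIs lay below the 14886 of the Dntt+Cd8b1+ thymocytes, few genes were higher. Of 9843 genes tested 33 (0.335%) were called higher in the Dntt+Cd8b1+ thymocytes and 407 (4.13%) lower. Il2ra was used by the rule. Cd8a was at 122 CPM against 16.7 and Ccr9, the chemokine receptor of the thymic cortex and gut, at 53.7 against 19.6, both called higher. Of 10 DN and progenitor genes 7 were called lower, 1 of them Il2ra, which chose both groups. The others included the stem cell factor receptor Kit at 3.41 CPM against 69.3 and the Notch target Hes1 at 3.96 against 32.3. Notch1 itself was at 118 CPM against 175 and was not called.

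Several gene groups did not pass the call against the Il2ra cells. No gene of the S phase list or of the G2/M list was called in either direction, and after thinning 59.0% of Dntt+Cd8b1+ thymocytes and 36.5% of Il2ra cells had at least 2 UMIs of Mki67 and Top2a. Rag2 was at 34.6 CPM against 23.6, Ptcra at 109 against 55.9 and Trdc at 209 against 180, none called. The γ chain constant region Tcrg-C1 separated them, at 20.8 CPM against 512. MHC class I stayed low, with 4 of 8 genes called lower and H2-K1 at 683 CPM in the Il2ra cells.

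Set against the Ikzf2 cells, 117 of 10322 genes (1.13%) were called higher and 692 (6.70%) lower. The Ikzf2 cells had a median of 4755.5 UMIs, below the 14886 of the Dntt+Cd8b1+ thymocytes, and the part of depth in these counts was not tested. Ikzf2 did not separate both groups fully, since 354 of the 624 Dntt+Cd8b1+ thymocytes (56.7%) also had an Ikzf2 UMI. After thinning, an Ikzf2 UMI was found in 16.1% of them and in 81.4% of the Ikzf2 cells. Of the 12 genes induced by selection 11 were lower, and of 12 proximal signalling genes 7, among them Cd5, whose level follows TCR signal strength. Trac was at 27.4 CPM against 141 in the Ikzf2 cells and was called lower. Trdc was at 209 CPM against 77.8 and was called higher. Trac and Trdc thus ran in opposite directions between these groups.

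By the second cut of the rule, at least 2 UMIs of Mki67 and Top2a, 546 of the 624 cells were cycling (87.5%, 84.6 to 89.99) and 78 resting. Both genes encode proteins of dividing cells, and both chose these groups. Resting means only below this cut and does not show that a cell had left the cell cycle. The S phase gene Mcm6 was at 457 CPM (381 to 544) in the 25 resting cells of more than 6000 UMIs. It was at 56.6 CPM (18.4 to 132) in resting cells of 2000 to 6000 UMIs. Row 11 had 58 cycling and 32 resting cells (64.4% cycling). Rows 13, 15 and 17 had 231, 157 and 100 cycling cells (93.5%, 90.8% and 87.7%). Only row 11 held at least 20 cells of both kinds, so the direction within rows rests on that row. The cycling cells had a median of 15932 UMIs and the resting cells 2683, and a fixed count of 2 UMIs is reached more easily in a deep cell.

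Of 8913 genes tested 267 (3.00%) were called higher in the cycling cells and 239 (2.68%) lower. In the G2/M list 21 of 23 were higher, 2 of them the genes of the cut, with Cenpf at 202 CPM against 14.9 and Plk1 at 176 against 14.9. In the S phase list 4 of 18 were higher, Tyms, Rrm1, Rrm2 and Cdc45. Among resting cells, S phase RNA was found mainly in those of more than 6000 UMIs, where Ung was at 167 CPM (122 to 222) and Cdc6 at 134 (94.5 to 185). Resting cells of 2000 to 6000 UMIs had 1 Ung and 2 Cdc6 UMIs. The S phase genes summed to 1615 CPM in resting cells of row 11 and to 3086 to 4498 CPM in those of the other rows. Neither MHC class I nor growth genes differed by the fold, with 0 of 8 and 0 of 14 called.

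The genes of the DP stage that were lower in cycling cells were the coreceptors and surface molecules. Cd4 was at 21.1, 10.3, 7.30 and 7.04 CPM in cycling cells of rows 11, 13, 15 and 17 and at 449, 51.4, 52.6 and 59.0 CPM in resting cells, where it rested on 32, 6, 6 and 6 UMIs. The resting cells of each row lay above the cycling cells of each row. Cd8a was at 104 CPM in cycling and 505 in resting cells, and Ccr9 at 43.1 and 282. These gaps moved with depth. Among cells of 2000 to 6000 UMIs Cd8a was at 657 CPM (556 to 770) in cycling and 860 (678 to 1076) in resting cells, with overlapping intervals. Ccr9 was at 259 (198 to 334) and 656 (498 to 848) in the same cells, and Cd4 at 69.1 (39.5 to 112) and 215 (129 to 336), and neither pair overlapped. Of 10 DP surface molecules 5 were called lower in cycling cells, Cd1d1, which presents lipid to iNKT precursors, Ccr9, Plxnd1, Cd2 and Cd27. Without row 11 the log2 ratio of cycling to resting cells was -1.79 for Cd4, -1.21 for Cd8a and -1.83 for Ccr9, against -2.75, -2.17 and -2.46 with it, and those of Cd8b1 (-0.73) and Trac (-0.76) were under the fold. Among cells of more than 6000 UMIs, which held 511 of the 624, the ratios of Cd8b1 and Trac were 0.24 and 0.27, the opposite direction.

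After thinning to 2000 UMIs, which left out 4 cycling and 23 resting cells, Cd4 was found more often in resting cells. A Cd4 UMI was found in 3.14% of cycling cells (1.84 to 4.97) and in 21.8% of resting cells (11.8 to 35.0). Cd4 and Cd8a together were found in 2.03% (1.02 to 3.60) and 16.4% (7.77 to 28.8). A Trdc UMI was found in 31.2% of cycling (27.3 to 35.3) and 12.7% of resting cells (5.27 to 24.5). Among cells of 2000 to 6000 UMIs the Trdc level did not separate them. It was at 112 CPM (73.4 to 165) in cycling and 124 (62.1 to 223) in resting cells, from 26 and 11 UMIs. Depth was not equal within that range, with medians of 4299 UMIs in cycling and 2678 in resting cells. Resting cells of row 11 had no Trdc UMI in 71217 UMIs, which allows a level of up to 42.1 CPM, while those of rows 13, 15 and 17 were at 68.5, 166 and 285 CPM. Cycling cells were at 232, 204, 213 and 216 CPM in rows 11, 13, 15 and 17, so resting cells lay lower in each row but row 17.

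**Figure D3:**
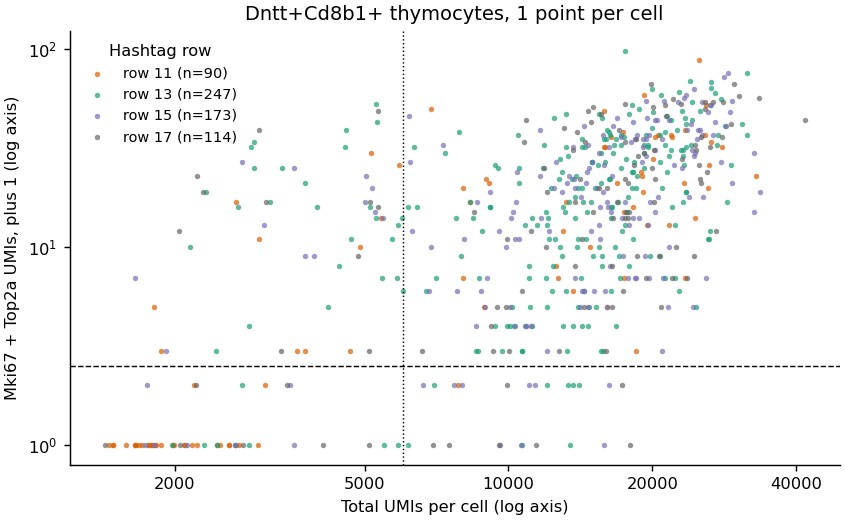
Total UMIs per cell (log axis) and summed UMIs of Mki67 and Top2a plus 1 (log axis), 1 point per Dntt+Cd8b1+ thymocyte, coloured by hashtag row, with the dotted line at 6000 UMIs and the dashed line below the cut of 2 UMIs. Resting cells had a median of 2683 UMIs, but 25 of 78 lay above 6000.

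The Dntt+Cd8b1+ thymocytes were also split by their total UMIs, which measure library depth as well as the RNA of a cell. At most 6000 UMIs were found in 113 cells (small, median 2862 UMIs) and more in 511 (large, median 16412). The small cells were 60 cycling and 53 resting, and the large cells 486 cycling and 25 resting. By row the small cells were 42 of 90 in row 11 (46.7%), 34 of 247 in row 13 (13.8%), 19 of 173 in row 15 (10.98%) and 18 of 114 in row 17 (15.8%). Row 11 stood apart.

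Cd4 differed with total UMIs. In small cells Cd4 was at 368, 97.0, 110 and 127 CPM in rows 11, 13, 15 and 17, and in large cells at 13.9, 8.35, 6.79 and 5.74 CPM. The groups did not overlap, and row 11 was highest in both. Among large cells Cd4 was at 7.81 CPM in cycling cells and 10.9 (2.24 to 31.8) in resting cells, the latter from 3 UMIs. Among small cells it was at 83.8 and 367. Those 3 UMIs are too few to say how close large cells of both kinds lay, and among small cells the resting were higher. Small cells among the others had Cd4 at 55.6 CPM, so a level in small libraries alone does not mark these cells.

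Cd8a, Rag1 and Ccr9 had the same order. Cd8a was at 1555, 768, 738 and 398 CPM in small cells of the 4 rows, and at 117, 114, 61.1 and 64.9 CPM in large cells. Rag1 was at 491 CPM in small and 70.1 in large cells, and Ccr9 at 428 and 38.0. Rag2, which the rule did not use, was at 115 CPM (82.5 to 155) in small and 31.3 (27.7 to 35.2) in large cells. Ptcra showed no such split, at 104 CPM (73.3 to 142) and 109 (102 to 116). Trdc was lower in small cells, 104 CPM (73.3 to 142) against 213 (204 to 223), and Trac higher, 115 (82.5 to 155) against 23.7 (20.6 to 27.2). In a shallow cell a fixed count of Rag1, Arpp21, Dntt and Cd8b1 UMIs is a higher CPM, so their levels in small cells are raised by the choice of members.

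**Figure D4:**
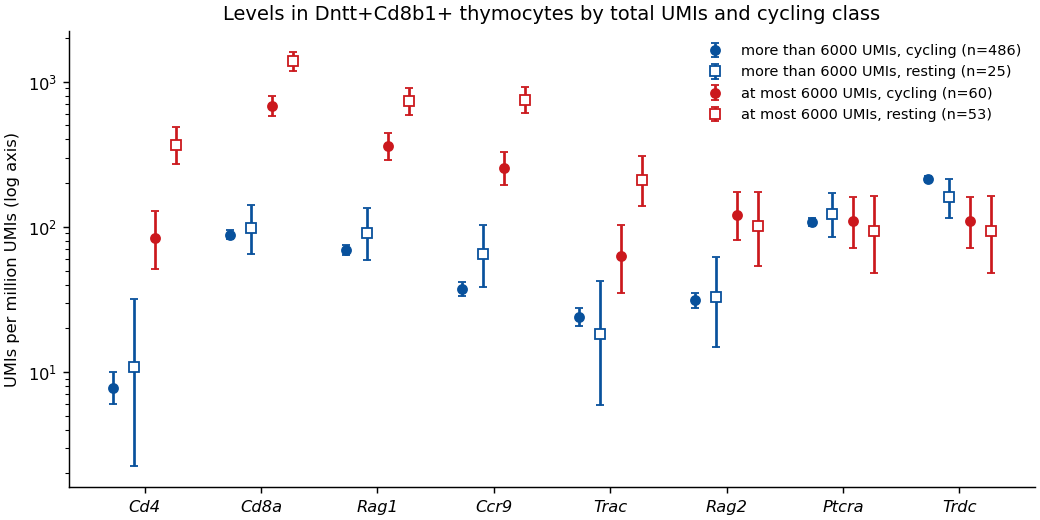
Summed CPM (log axis) of named genes in large and small Dntt+Cd8b1+ thymocytes, each split into cycling and resting cells, with exact Poisson 95% intervals. Cd4 ran from 7.81 and 10.9 CPM in large cells, the latter from 3 UMIs, to 83.8 and 367 in small ones. Ptcra stayed between 93.7 and 123.

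Over all genes the shift was broad. Of 8913 tested, 1446 (16.2%) were called higher in small cells and 297 (3.33%) lower, with direction read in rows 11 and 13, and the median log2 ratio of all tested genes was 0.37. Against that background 8 of 14 DP transcription factors were called higher, among them Satb1 at 1797 CPM against 506. Of 12 proximal signalling genes 7 were higher and of 10 DP surface molecules 6. Of 14 growth genes 3 were lower, Ldha, Npm1 and Srm, and of 18 S phase genes 2, Gins2 and Dut. Outside the lists Mif was lower, at 300 CPM against 1333.

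Cells just inside and just outside each threshold of the rule differed by degrees. The median cell had 15 UMIs of Rag1, Arpp21 and Dntt and 4 of Cd8b1. The 25 cells at exactly 2 had Ptcra at 11.6 CPM and Ikzf2 at 162, and 41 cells at exactly 1 that otherwise met the rule had no Ptcra UMI and Ikzf2 at 543 CPM. The 98 cells with exactly 1 Cd8b1 UMI had Ptcra at 80.4 CPM, and 212 cells with none that otherwise met the rule had 48.0. A further 39 cells were left out by a single Il2ra UMI and had Ptcra at 97.8 CPM. For the cycling cut, the 57 cells with no Mki67 or Top2a UMI had Cd4 at 184 CPM, the 21 with 1 UMI 45.7 and the 24 with exactly 2 UMIs 17.7.

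The V segments, which the rule did not use, gave the receptor in more detail. Reads from the 5′ end cover V segments of both rearranged and unrearranged transcripts, so a UMI does not show a join, and the near-identical d and n copies of TRAV segments may have been split in counting. TRBV UMIs were found in 618 of 624 Dntt+Cd8b1+ thymocytes (99.0%). Of 585 with at least 5 TRBV UMIs, 481 (82.2%, 78.9 to 85.2) had 1 segment with at least 80% of them. These dominant segments were 21 in number, led by Trbv13-2 in 60 cells (12.5%, 9.66 to 15.8), Trbv2 in 40 and Trbv3 in 37. Trbv13-2 is the β segment most used by mouse iNKT cells, and in rows 12, 14, 16 and 18 it was dominant in 56.1% of 2103 such cells. The share was 10.9% in the Ikzf2 cells and 33.1% (25.3 to 41.7) in the Il2ra cells.

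TRAV UMIs were fewer. There were 1222 (134 CPM) over 66 of 128 annotated segments, and 74.0% (71.4 to 76.4) fell on the third of the segments nearest to the J segments. The same share was 57.1% in Ikzf2 cells and 59.0% in rows 12, 14, 16 and 18. The 10 segments that can also join to TCRδ, named with dv, are 7.81% of the TRAV segments and held 58.6% of these UMIs (55.8 to 61.4), with 49.5%, 62.3%, 58.9% and 58.4% in rows 11, 13, 15 and 17. Leading were Trav15-2-dv6-2 with 191 UMIs, Trav15-1-dv6-1 with 185 and Trav21-dv12 with 175, whose signals are printed above. The dv share was 41.3% in Il2ra cells, 24.0% in Ikzf2 cells and 8.21% in rows 12, 14, 16 and 18. Among the Dntt+Cd8b1+ thymocytes it was 62.8% in cycling and 30.4% in resting cells, the latter from 48 of 158 UMIs in 51 cells. It also differed with total UMIs, at 42.7% (35.7 to 49.9) in small and 61.7% (58.6 to 64.7) in large cells. The cycling and resting shares were not compared at matched depth.

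TRDV segments had 743 UMIs (81.7 CPM, 75.9 to 87.8), against 18.5 CPM in Il2ra cells, 99.9 in Ikzf2 cells and 8.49 in rows 12, 14, 16 and 18. Trdv2-2 held 495 of them, with 22, 255, 145 and 73 UMIs in rows 11, 13, 15 and 17. Trdv1 had 33, 66, 33 and 34 UMIs, so Trdv2-2 was the more frequent in each row but row 11. Trdj1 had 46 UMIs and all TRAJ segments together 8. Trav11 and its copies, the iNKT α segments, had 7 UMIs (0.573% of TRAV), against 1267 (29.0%) in rows 12, 14, 16 and 18, and Traj18 had 1 UMI against 222.

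**Figure D5:**
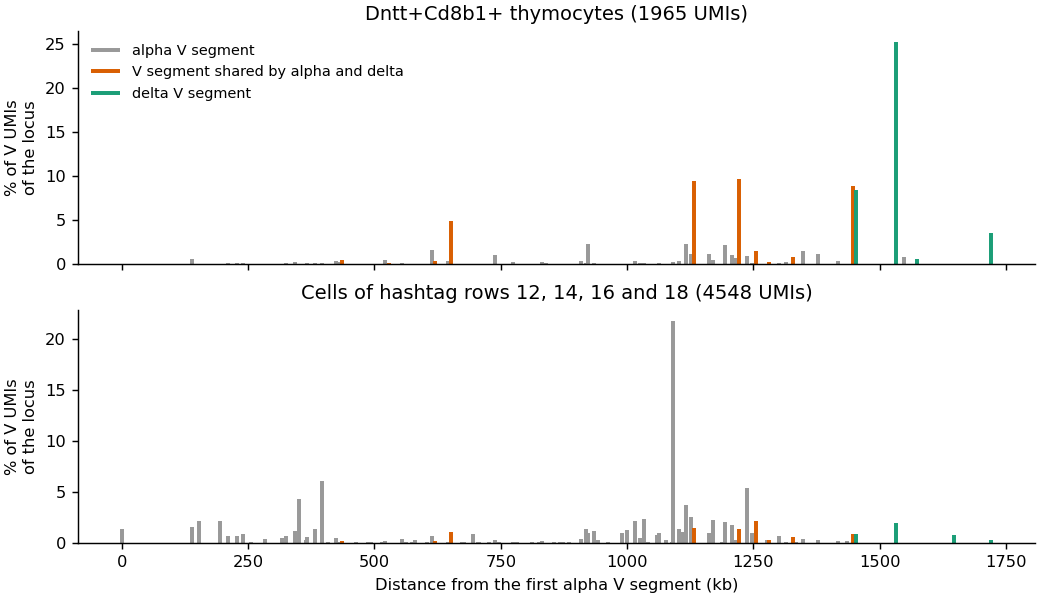
Percentage of all TRAV and TRDV UMIs held by each segment, by distance from the first TRAV segment (kb), in the Dntt+Cd8b1+ thymocytes (top) and in the cells of rows 12, 14, 16 and 18 (bottom). Segments shared with TCRδ held 58.6% of the TRAV UMIs in the former and 8.21% in the latter.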

How the data were processed

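The deposited matrix holds raw UMI counts for 32285 genes, 20 hashtag rows and 16179 barcodes, made by the authors with Cell Ranger 6.0.0 on mm10 (reference release not given in the sources used here). Here cells with at least 1000 genes, at most 5% mitochondrial UMIs and 1 of rows 11 to 18 with at least 80% of at least 10 hashtag UMIs were kept. UMIs were summed per group and divided by the group total (Python 3.11.15, numpy 2.4.6, scipy 1.17.1, pandas 2.3.3). Intervals are exact Poisson for CPM and Clopper-Pearson for shares. The members, the gene lists and the comparisons were chosen with earlier results of these data known. Named genes were those of the rule and the lists, the 10 called genes with the largest ratio in each direction and UMIs in at least 10% of the higher group, Kidins220 and Ikzf3, and up to 5 leading V segments of each kind. Alternatives for the rule, filters, depth, pseudocount and rows were run. The split at 6000 UMIs, the dv share and the TRBV use per cell were added after seeing the data. Counting and calling were tested on simulated data. Results for 1 gene are not reported here. No test of a difference between groups was run, because the rows have no labels. Dixon's criterion was used over the rows only to flag values.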

Additional observations from a re-analysis of the deposited data

Results flagged for a closer look

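Over 26 values with 1 number for each of the 4 hashtag rows, 5 had a row far from the other 3 by Dixon's criterion. It flags about 1 in 20 sets by chance, but the 26 values come from the same cells and are not independent. The count of 5 can therefore not be judged by that rate. The rows are populations without labels, and no cause was tested. In row 11 the share of Dntt+Cd8b1+ thymocytes with at most 6000 UMIs was 46.7%, Cd4 was at 52.5 CPM and Arpp21, a gene of the rule, at 341 CPM, all above the other rows. In row 15 Cd1d1 was at 16.9 CPM, below the other rows. In row 17 the median hashtag UMIs of these cells were 1572.5, above the other rows. In rows 12, 14, 16 and 18, which no comparison used as a source of members, 5 cells met the rule.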

How the results depend on the processing

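The share of Dntt+Cd8b1+ thymocytes, 14.7% as reported, was 12.4% with Cd8b1 at 2 UMIs or more, 9.32% among cells of at most 4000 genes and 21.3% among cells of more than 6000 UMIs, and 13.4% to 17.4% when 1 row was left out, the highest without row 11. The share of cycling cells, 87.5%, was 83.6% with Rag1, Arpp21 and Dntt at 1 UMI or more, 77.0% with at most 4000 genes, 90.8% in cells kept by thinning to 2000 UMIs, 90.9% and 80.8% with the cut of Mki67 and Top2a at 1 and at 4, 65.1% in cells of 2000 to 6000 UMIs, 95.1% above and 53.1% at or below 6000 UMIs, and 83.6% to 91.4% without 1 row. Genes called against the other cells numbered 1252, 2929 with 1 CPM added (505 higher and 2424 lower) and 1154 to 1337 without 1 row. Genes called between cycling and resting cells numbered 506, 1214 with 1 CPM added, 1118 and 200 with the cut at 1 and at 4, and 445 to 680 without 1 row. The TRAV share of the third nearest to the J segments, 74.0%, was 71.4% with the lower cut of the rule, 70.4% after thinning, 69.8% in cells of at most 6000 UMIs and 68.9% to 75.9% without 1 row. In cells of more than 6000 UMIs the log2 ratios of cycling to resting cells turned for Cd8b1 (0.24) and Trac (0.27). The cause was not tested. Of the ratios of single genes, 317 of 340 between cycling and resting cells and 268 of 288 against the other cells moved by less than 1 SD of that ratio over the 4 rows. The dv share of TRAV UMIs lay outside its reported interval in 4 of 14 other settings. The depth splits were chosen after seeing the data. Small cells and resting cells rest on few UMIs, 67 of Cd4 in all small cells. No paired analysis was possible because no source pairs the hashtag rows with replicates.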
